A study of Mus musculus with 19 samples.

Results

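The matrix metalloproteinases Mmp2, Mmp3, Mmp9, Mmp12, Mmp13, Mmp14 and Mmp19 and their tissue inhibitors Timp1, Timp2 and Timp3 were followed in single cells of the tenotomy site in a mouse model of trauma-induced heterotopic ossification (HO). They made up 10 of the 27998 genes counted, were chosen by symbol, and all 10 were measured in all 19 libraries. The question was how much of each transcript lay in myeloid cells and how much in stromal cells, and how both sources moved with time after injury. The cells were encapsulated on the 10x Chromium platform (3′ chemistry, v2), which counts unique molecular identifiers (UMIs), each standing for 1 captured transcript.

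Libraries were labelled day 0 (4), day 3 (3), day 7 (4) and day 21 (4). A further 4 libraries came from injured mice given the CD47-activating peptide p7N3 intraperitoneally at 10 mg/kg each day from 3 days before until 3 days after injury. The injury was a dorsal scald over 30% of the body surface with Achilles tenotomy, and the labels list it for every group. The results section of the paper, by contrast, places day 0 before injury. The labels give no day for p7N3 replicate 4. A figure legend of the study places its sequenced p7N3 and PBS mice a week after injury. The paper does not say that the libraries labelled day 7 came from the PBS mice. C57 and LysmCre/Tgfb1fx/fx mice are named for the series as a whole and no library carries a genotype or an age, so genotype could not enter any comparison. LysM-Cre acts across the myeloid lineage, in granulocytes as well as in macrophages. The study describes its single-cell replicates as a measure of variability between mice, but the labels tie no library to an animal, so the p-values measure the spread between libraries, which may be technical.

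Matrix metalloproteinases are zinc endopeptidases that are mostly secreted as inactive proenzymes and that together can cleave every class of extracellular matrix protein. Mmp2 and Mmp9 are the gelatinases, Mmp13 is a collagenase, Mmp3 is stromelysin-1, Mmp12 is the macrophage elastase, Mmp14 is anchored in the plasma membrane and activates pro-Mmp2, and Mmp19 is a secreted enzyme outside these groups. The TIMPs bind active metalloproteinases in a tight complex. Timp2 also takes part in the activation of pro-Mmp2 by Mmp14, and Timp3 is held in the matrix and in addition inhibits ADAM and ADAMTS proteinases. In endochondral bone formation Mmp13 is a product of hypertrophic chondrocytes and osteoblasts, and Mmp9 of osteoclasts.

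Mmp3, Mmp12 and Mmp13 lie in a cluster of 9 metalloproteinase genes that spans 427 kb of chromosome 9 (7272514 to 7699585, GENCODE vM21 on GRCm38). Their proximal promoters are shown because all 3 genes were near 0 or low in myeloid cells before injury and later differed in the cell class that held them. The 100 bases before the RefSeq start (GRCm38.p6, plus strand) follow, with the AP-1-type motif TGANTCA, which reads the same on both strands, in capitals.
Mmp3, chr9:7445722-7445821: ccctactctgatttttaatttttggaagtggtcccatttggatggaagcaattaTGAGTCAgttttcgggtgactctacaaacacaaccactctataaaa
Mmp12, second start, chr9:7347274-7347373: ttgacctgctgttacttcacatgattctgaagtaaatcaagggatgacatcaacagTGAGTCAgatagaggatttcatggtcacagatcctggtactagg
Mmp13, chr9:7272414-7272513: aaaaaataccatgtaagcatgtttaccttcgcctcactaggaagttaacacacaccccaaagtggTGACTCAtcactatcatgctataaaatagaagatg
The motif began 46 bases before the start of Mmp3, 44 before that of Mmp12 and 35 before that of Mmp13. Windows from 250 bases before to 50 after the start were present for 7 members in 8 windows, and 3 of the 8 held the motif, against 7.81% of all 32851 windows. The windows of the first Mmp12 start and of Mmp14, Timp1, Timp2 and Timp3 did not hold these letters. Windows of Mmp2, Mmp9 and Mmp19 were not used here. A match of letters is a description and shows neither a binding site nor binding.

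After filtering, 39541 cells were kept, with 3019467 to 39870492 UMIs in the cells of a library. The day 0 libraries were the shallowest (3019467 to 5383855 UMIs). Across libraries, 4.96% of cells had a barcode that another library shared. Cells were clustered without the 10 members and without 48 related genes, and classes were named from marker genes. The monocyte/macrophage-like class held 14456 cells (386 at day 0, 3816 at day 3, 4892 at day 7, 691 at day 21 and 4671 with p7N3) and the stromal-like class 14016 (1149, 819, 5790, 2068 and 4190). Different clusters filled a class at different times. Monocyte/macrophage-like cells were mostly cluster 14 (Cd163, Folr2) at day 0, clusters 5 (Chil3, Ccr2) and 6 (Pf4, Mrc1) at day 3 and clusters 3 (Ms4a7, C1qa), 4 (Gpnmb, Spp1, Trem2) and 7 (H2-Aa, Ccr2) at day 7. Stromal-like cells were mostly clusters 1 (Clec3b, Sfrp4) and 17 (Pi16) at day 0, cluster 16 (Prg4, Ptx3) at day 3, clusters 2 (Postn, Aspn), 1, 8 (Sfrp1) and 10 (Crabp1, Tnc) at day 7 and cluster 1 at day 21.

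RNA of other lineages was present in each class and moved with time. The mean levels of 6 stromal markers (Col1a1, Col1a2, Col3a1, Dcn, Lum and Pdgfra) in monocyte/macrophage-like cells were, as a median over the 6 genes, 1.21% of their stromal-like levels at day 0, 3.68% at day 3, 2.60% at day 7, 2.20% at day 21 and 2.58% with p7N3. In the libraries their summed level ranged from 438 to 747 counts-per-million units (CPM) at day 0, from 796 to 1396 at day 3, from 1213 to 1536 at day 7, from 1106 to 2362 at day 21 and from 1001 to 1431 with p7N3, and 5 of the 6 were above 0 in every library at day 0 and all 6 in the other groups. The mean levels of 6 myeloid markers (Cd68, Lyz2, C1qa, C1qb, Csf1r and Tyrobp) in stromal-like cells were, by the same median, 0.535% of their macrophage levels at day 0, 7.46% at day 3, 1.73% at day 7, 0.548% at day 21 and 1.91% with p7N3. Their sum ranged from 52.6 to 163 CPM at day 0, from 1801 to 1935 at day 3, from 462 to 679 at day 7, from 120 to 224 at day 21 and from 503 to 588 with p7N3. A member that sat at such a percentage of its level in the other class is named as such below, and the part of this RNA in its level was not tested.

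**Figure D1:**
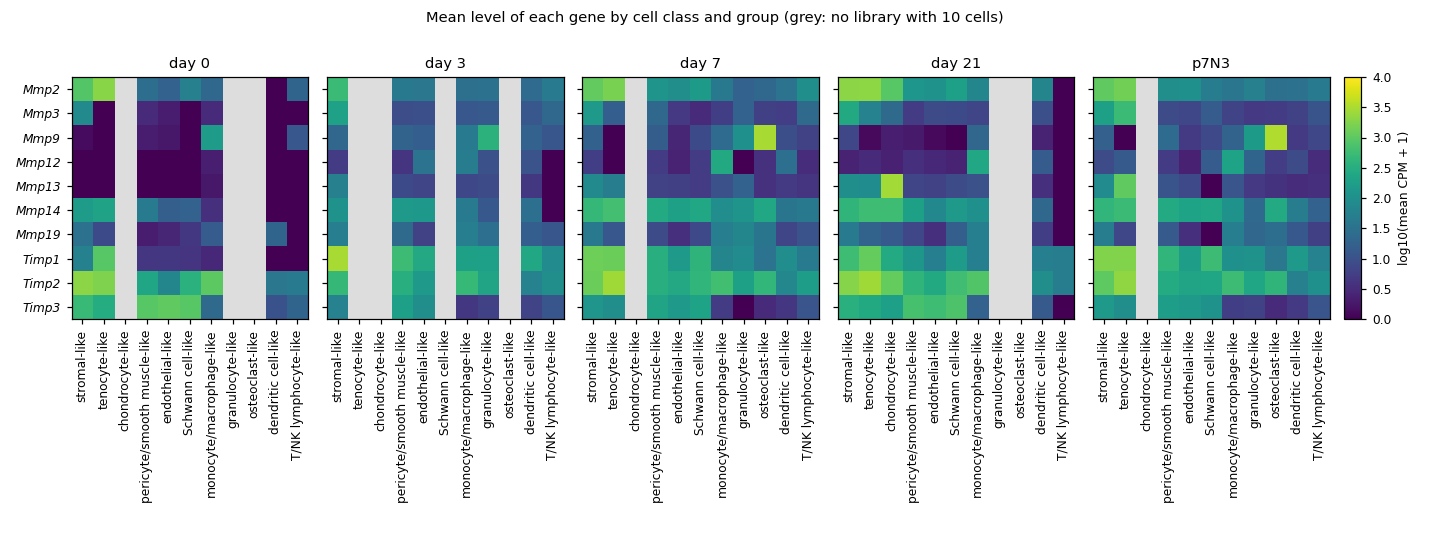
Mean level of the 10 genes (rows) in 11 cell classes (columns) in each group, as log10(mean CPM + 1) over libraries with at least 10 cells of the class; grey columns had no such library. Mmp9 is brightest in osteoclast-like cells at day 7 and with p7N3, Mmp12 in monocyte/macrophage-like cells from day 3 on, Mmp13 in chondrocyte-like cells at day 21, and Timp1 in stromal-like cells at day 3.

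Levels below are CPM of the summed UMIs of a class in a library, given in the order of the replicate numbers. Since only the 3′ end of a transcript is counted, levels were compared between groups and classes for 1 gene at a time. Changes are log2 fold changes from edgeR's quasi-likelihood test, with p-values adjusted by Benjamini and Hochberg over all genes of the fit. The test gives no standard error. The SE after ± is the absolute log2 change divided by the square root of the F statistic. It restates the test and is no separate measure of error, least of all for genes with few UMIs. A change was called at an adjusted p under 0.05. Against day 0, 7 of the 10 members were called at day 3 in monocyte/macrophage-like cells (4 higher and 3 lower; of all 11638 genes tested 37.4% were called, 20.8% higher and 16.6% lower), 8 at day 7 (5 higher and 3 lower; 33.3% of genes, 18.2% and 15%) and 6 at day 21 (5 higher and 1 lower; 20.9%, 12.4% and 8.49%). The median log2 change of the members was 2.36, 1.83 and 2.09, beside 0.05, 0.03 and 0.05 over all genes tested. At day 0 Mmp3, Mmp12, Mmp13, Mmp14 and Timp1 had few UMIs in this class, and Mmp9, Mmp12 and Mmp13 few or none in stromal-like cells. Such genes pass the filter mainly through later groups and could hardly be called lower. The counts and medians of this paragraph rest partly on them and are not read as a result about the members. In stromal-like cells all 10 were called at day 3 (6 higher and 4 lower; of 14013 genes 60.5% were called, 30.9% higher and 29.6% lower), 9 at day 7 (7 higher and 2 lower; 54.3%, 29.3% and 24.9%) and 7 at day 21 (7 higher and none lower; 37.5%, 21.3% and 16.3%), with medians of 1.10, 1.27 and 1.69 beside 0.03, 0.06 and 0.06.

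Mmp2 (chr8:92827291-92853420, plus strand), the gelatinase of mesenchymal cells, was a stromal transcript at every time. Stromal-like levels were 910, 972, 741 and 820 CPM at day 0, 534, 598 and 442 at day 3, 1319, 1041, 1129 and 884 at day 7 and 2004, 2083, 2093 and 1827 at day 21. All 3 libraries of day 3 lay below all of day 0, and all 4 of day 21 above every other library. The log2 change from day 0 was −0.59 ± 0.12 at day 3 (adjusted p = 0.000251), 0.41 ± 0.11 at day 7 (adjusted p = 0.00348) and 1.33 ± 0.11 at day 21 (adjusted p = 2.17e-08). From day 7 to day 21 it rose by 0.92 ± 0.11 (adjusted p = 3.53e-06). The highest stromal-like cluster was cluster 23 (Sfrp4, Angptl1) at day 21, with 3031 ± 59 CPM (SD, n = 4). At day 7 the Crabp1-high clusters 10 and 15 stood at 542 and 538, against 1462 in cluster 1. Tenocyte-like cells held 1950 CPM at day 0 and 2068 at day 21.

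In monocyte/macrophage-like cells Mmp2 stood at 21.1 ± 12.7 CPM at day 0 (SD, n = 4), 29.4 ± 9.79 at day 3 (n = 3), 40.7 ± 5.34 at day 7 (n = 4) and 66.8 ± 28 at day 21 (n = 4). It rose by 1.3 ± 0.39 at day 7 (adjusted p = 0.0107) and by 1.90 ± 0.38 at day 21 (adjusted p = 0.000923) relative to day 0, while the difference at day 3 (0.80 ± 0.41, adjusted p = 0.129) was not called. Without day 0 replicate 1, the day 7 value was 1.15 (adjusted p = 0.078). Relative to stromal-like cells these levels were fitted folds of 0.0212 at day 0, 0.0646 at day 3, 0.0468 at day 7 and 0.0344 at day 21. Each lay above the highest of the 6 stromal markers in the same class, which were at most 1.64%, 4.54%, 3.29% and 2.56%.

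Mmp9 (chr2:164940780-164955850, plus strand), the gelatinase of granulocytes, macrophages and osteoclasts, had its UMIs in different cell classes at different times. At day 0 it stood at 172, 171, 162 and 145 CPM in monocyte/macrophage-like cells, with 2 UMIs in all in stromal-like cells. The ratio of the classes was 499 (95% counting interval 137 to 4141). The macrophage signal came from the Cd163- and Folr2-expressing cluster 14, which held 98.0% of the class's Mmp9 UMIs with 77.5% of its cells, at 219 ± 31 CPM (SD, n = 4). Levels in the class were then 29.9, 38.4 and 64.6 CPM at day 3, 22.0, 26.9, 13.1 and 32.9 at day 7 and 19.3, 27.3, 20.1 and 12.5 at day 21. No library after day 0 reached the lowest one of day 0. Mmp9 fell by 1.65 ± 0.28 on the log2 scale at day 3 (adjusted p = 4.48e-05), by 2.49 ± 0.28 at day 7 (adjusted p = 2.45e-07) and by 2.90 ± 0.34 at day 21 (adjusted p = 2.31e-06). The further fall from day 3 to day 7 (−0.83 ± 0.23, adjusted p = 0.00761) was −0.44 without day 3 replicate 3 (adjusted p = 0.13).

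Within cluster 14 alone Mmp9 averaged 41.3 CPM at day 3 (33.5 to 47.9), 20.4 at day 7 (6.88 to 36.9) and 60.1 at day 21 (51.3 to 65.4), all below the range of 188 to 260 of its day 0 libraries. These cluster values are given without a test. The cluster also made up less of the class later, with 318 of 4892 cells at day 7. The parts of cluster make-up and of level within the cluster in the fall of the class were not tested.

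In the other myeloid classes Mmp9 was high at later times. Granulocyte-like cells held 325, 376.8 and 411 CPM at day 3 and 94.9, 221 and 139 in the 3 p7N3 libraries with at least 10 such cells. All 6 values lay above the monocyte/macrophage-like cells of the same group. The difference was 3.46 ± 0.14 log2 units at day 3 and 2.95 ± 0.34 with p7N3, with DESeq2 adjusted p-values of 5.03e-32 and 2.53e-15, since edgeR estimated no extra spread between genes in this fit. At day 7 only 1 library had enough granulocyte-like cells. The class joined clusters 27, 32 and 48, with 140, 131 and 19 cells at day 3 and 41, 7 and 8 with p7N3. Each had 12 of 12 granulocyte markers raised. Cluster 27 was also led by Chil3 and Ifitm6 and cluster 48 by Pf4 and Mrc1, which are monocyte/macrophage markers here. The part of monocyte/macrophage cells or RNA in the class was not tested. Of the other members, Mmp12, Mmp14 and Timp2 were lower in granulocyte-like cells in both groups, so that 4 of 10 were called at day 3 (26.9% of 10168 genes) and 4 with p7N3 (7.62%). The day 3 log2 differences were −1.95 ± 0.27 for Mmp12, −1.67 ± 0.27 for Mmp14 and −0.80 ± 0.16 for Timp2. Without the library as a block the Mmp12 differences were not called (adjusted p = 0.23 at day 3 and 0.21 with p7N3).

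Osteoclast-like cells, named here by markers of bone-resorbing myeloid cells such as Acp5 and Atp6v0d2, were few (84 at day 7 and 98 with p7N3). They carried the highest mean Mmp9 level of the classes measured in those groups. At day 7 they held 1511, 2583 and 4753 CPM in 3 libraries, and with p7N3 4364, 2594, 2618 and 3805. Cluster 41 (Ctsk, Ocstamp), with 36 of its 75 cells from p7N3 mice, reached 6280 CPM with p7N3 (n = 2), against 321 in cluster 34 (Jdp2, Nfatc1). Cluster 34 held most of the class, with 53 cells at day 7 and 62 with p7N3, against 31 and 36 in cluster 41. It had 4 of 7 osteoclast markers raised, and Ctsk was not among its leading genes. The class level of Mmp9 thus joins 2 unlike clusters. Of all Mmp9 UMIs in a library's cells, osteoclast-like cells held 60.7% ± 7.52 at day 7 (SD, n = 4) and 72.5% ± 4.77 with p7N3. At day 3 the 4, 3 and 2 osteoclast-like cells of the libraries held 8.19%, 9.45% and 13.9%. At day 21, 3 such cells held 71.0% in replicate 1 and 2 held 28.4% in replicate 4. The single one in replicate 3 held 0%, and replicate 2 had none. Monocyte/macrophage-like cells held 90.6% ± 2.94 at day 0, 30.1% at day 3, 11.2% at day 7, 36% ± 30.8 at day 21 and 6.82% with p7N3. The stromal-like share was 0.708% at day 0, 9.39% at day 3, 22.4% ± 4.52 at day 7, 32.9% ± 23.8 at day 21 and 16.1% ± 3.78 with p7N3, above the macrophage share at day 7 and with p7N3. At day 3, 32.3% of Mmp9 UMIs lay in cells of no named class. Most of those cells formed cluster 26 (Kcnn4, Camp, Nrp2, Jdp2), 188 of whose 215 cells came from day 3 and which held 351, 559 and 515 CPM in the day 3 libraries.

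Stromal-like cells showed Mmp9 at 20.2 ± 8.42 CPM at day 3 (SD, n = 3), 16.7 ± 6.70 at day 7 (n = 4) and 6.04 ± 6.84 at day 21 (n = 4). Against the 2 UMIs of day 0 these were ratios of 57.1 (15.7 to 473), 49.2 (13.6 to 407) and 24.0 (6.57 to 199), each with its 95% counting interval. The adjusted p-values were 0.000741, 0.00158 and 0.0367. The last call rested on day 21 replicate 4, at 16.1 CPM against 1.46 to 4.57 in the other libraries, without which the ratio was 7.72 and the call was lost (adjusted p = 0.13). In the same libraries the myeloid markers in stromal-like cells were at 7.46% of their monocyte/macrophage-like level at day 3 and 1.73% at day 7. Mmp9 was higher in other myeloid classes. Granulocyte-like cells held 325 to 411 CPM at day 3, and osteoclast-like cells 1511 to 4753 at day 7 in libraries with at least 10 such cells. The part of RNA from these cells in the stromal-like level was not tested.

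Mmp12 (chr9:7344381-7369499, plus strand), the elastase of macrophages, was nearly absent at day 0, when 3 UMIs were counted in monocyte/macrophage-like cells and none in stromal-like cells. Macrophage-class levels were 8.56, 45.7 and 86.6 CPM at day 3, 175, 175, 180 and 545 at day 7 and 31.1, 272, 460 and 224 at day 21. Every library of day 7 lay above every library of day 3, and day 21 replicate 1 lay among the day 3 libraries. The ratio to day 0 was 142 (48.7 to 691) at day 7 and 119 (40.8 to 580) at day 21, called at adjusted p-values of 0.000267 and 0.00114. The ratio at day 3 was 22.9 (7.83 to 111), with an adjusted p of 0.0507 that passed the threshold without day 3 replicate 1 (adjusted p = 0.0099) and with DESeq2 (adjusted p = 0.00039). The ratio was 14.1 without day 3 replicate 3, and that of day 7 was 89.2 without day 7 replicate 4. From day 3 to day 7 Mmp12 rose by 2.56 ± 0.62 (adjusted p = 0.00314), and day 21 differed from day 7 by −0.22 ± 0.54 (adjusted p = 0.844).

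The transcript was concentrated in a few macrophage clusters, although Mmp12 had no part in forming them. Cluster 4, which expressed the lipid-handling and phagocytic genes Gpnmb, Spp1, Trem2, Lpl and Cd36, held 94.4% of the class's Mmp12 UMIs at day 7 with 26.1% of its cells, 98.0% with 14.2% at day 21 and 95.7% with 27.3% in p7N3 mice. Its level was 834 ± 330 CPM at day 7 (SD, n = 4; 555 to 1183). At day 3 the Arg1- and Spp1-expressing cluster 25 held 63.0% of Mmp12 UMIs with 4.35% of cells, at 719 ± 380 CPM (SD, n = 3). Cluster 4 then held 24.1% with 4.38% of cells. The other monocyte/macrophage-like clusters averaged at most 46.9 CPM at day 7. After each cell was thinned to 1500 UMIs, 0%, 2.36%, 5.09% and 3.04% of monocyte/macrophage-like cells carried an Mmp12 UMI at days 0, 3, 7 and 21, beside 0%, 0%, 0.431% and 0% of T/NK lymphocyte-like cells, whose median depth was 4204 UMIs at day 7 against 5284.

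Stromal-like cells showed Mmp12 at 4.06 ± 3.45 CPM at day 3 (SD, n = 3), 4.48 ± 2.89 at day 7 (n = 4) and 1.38 ± 0.628 at day 21 (n = 4), at least 7.64-fold, 8.84-fold and 2.54-fold above a day 0 at which no UMI was seen. These are lower bounds that take 3 UMIs over the group as the floor, and the first was 4.94-fold without day 3 replicate 3. The calls at day 3 and day 7 (adjusted p = 0.0426 and 0.0352) were lost without any single day 0 library. The classes differed by 3.78 ± 0.31 log2 units at day 3, 6.25 ± 0.22 at day 7 and 7.46 ± 0.33 at day 21, the macrophage class being higher each time (adjusted p = 1.45e-11, 6.06e-20 and 2.16e-17). At day 7 the fitted macrophage level was 76.1-fold the stromal-like one. In mean CPM the stromal-like level was 1.67% of the macrophage level, beside a median of 1.73% for the myeloid markers in stromal-like cells.

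Between consecutive times, monocyte/macrophage-like cells had 7 members called from day 3 to day 7 (4 higher and 3 lower; 29.4% of genes called, 13.7% higher and 15.7% lower) and 2 from day 7 to day 21 (both higher; 15.6%, 7.54% and 8.03%). Stromal-like cells had 5 called from day 3 to day 7 (4 higher and 1 lower; 48.1%, 24.9% and 23.2%) and 5 from day 7 to day 21 (4 higher and 1 lower; 36.7%, 18.2% and 18.5%). The single lower one in stromal-like cells was Timp1 both times. In these cells Mmp2 and Timp2 were higher in both steps. The later step in macrophages was called for Timp3 and for Mmp2, and the Mmp2 value of 0.60 ± 0.20 (adjusted p = 0.0467) was 0.33 without day 21 replicate 2 (adjusted p = 0.3).

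**Figure D2:**
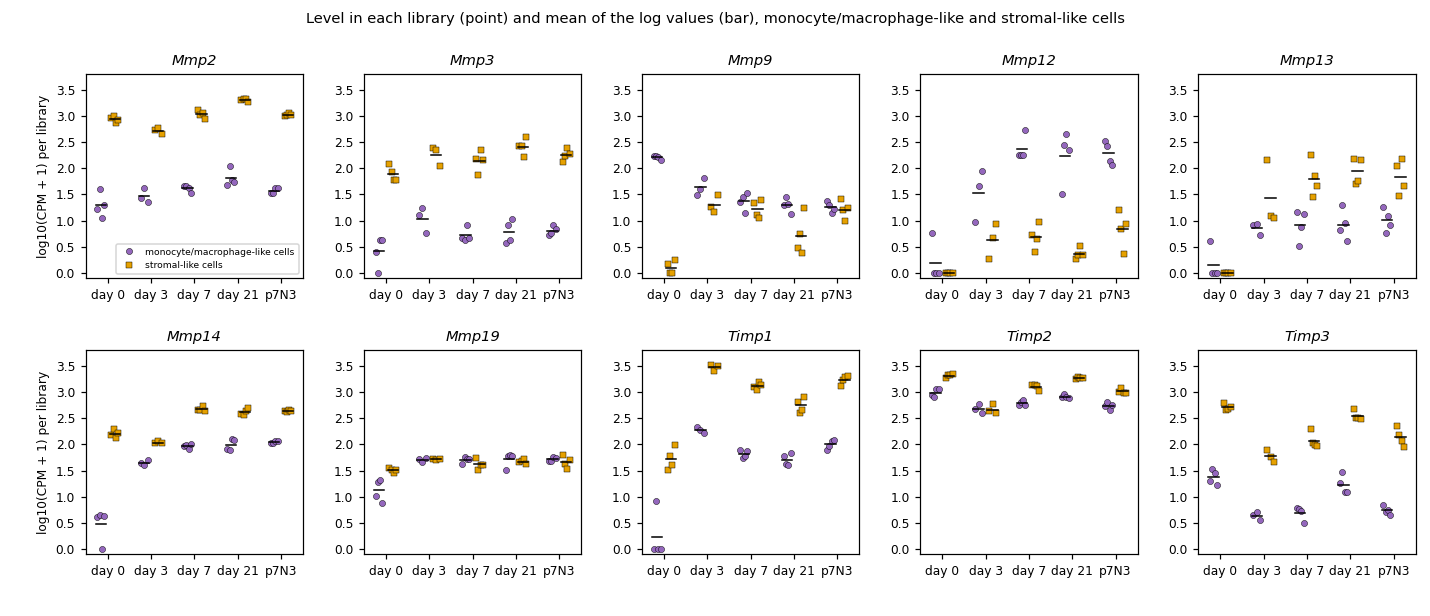
Level of each gene in every library, as log10(CPM + 1), in monocyte/macrophage-like cells (purple circles) and stromal-like cells (yellow squares); the black bar is the mean of the log values. Mmp2, Mmp3, Timp1 and Timp3 keep the stromal squares above the purple circles in every group, Mmp12 the reverse from day 3, and the classes meet for Timp2 at day 3.

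Mmp3 (chr9:7445822-7455975, plus strand), stromelysin-1, which degrades proteoglycans and activates other proenzymes, lay in stromal-like cells, whose share of its UMIs was 97.5% at day 0, 90.3% at day 3, 96.0% at day 7 and 88.5% at day 21. Stromal-like levels were 118, 83.1, 57.7 and 58.6 CPM at day 0, 243, 226 and 109 at day 3, 146, 73.5, 218 and 141 at day 7 and 266, 261, 162 and 386 at day 21. Day 7 overlapped day 0, and day 21 did not. Mmp3 rose by 1.39 ± 0.36 at day 3 (adjusted p = 0.0022), 0.91 ± 0.34 at day 7 (adjusted p = 0.0282) and 1.87 ± 0.34 at day 21 (adjusted p = 0.000247). The day 7 call was lost without day 0 replicate 2, 3 or 4 or day 7 replicate 3 (adjusted p of 0.056, 0.094, 0.084 and 0.12). From day 7 to day 21 it rose by 0.96 ± 0.31 (adjusted p = 0.02), a call lost without day 7 replicate 2 (adjusted p = 0.066) or day 21 replicate 4 (adjusted p = 0.079).

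Stromal clusters differed in Mmp3. The Clec3b- and Sfrp4-expressing cluster 1 held 116 CPM at day 0 and 309 at day 7 (184 to 433), while the Postn- and Aspn-expressing cluster 2 held 29.8 at day 7 (9.56 to 45.6). The 2 clusters did not overlap at day 7 and again did not at day 21 (256 to 387 against 12.3 to 63.6). Monocyte/macrophage-like cells had 3 Mmp3 UMIs at day 0 and 11.1 ± 5.95 CPM at day 3 (SD, n = 3), a ratio of 5.86 (1.99 to 28.5; adjusted p = 0.0262). This call was lost without day 0 replicate 1 or 2 (adjusted p = 0.11 and 0.074). The class then fell by 1.32 ± 0.31 to day 7 (adjusted p = 0.00255). Its fitted fold relative to stromal-like cells was 0.0668 at day 3 and 0.0387 at day 7. As a ratio of mean CPM, the measure of the markers, it was 5.78% at day 3, 3.13% at day 7 and 2.16% at day 21. The stromal markers ranged from 2.72% to 4.54%, from 2.11% to 3.29% and from 1.75% to 2.56% at these times. Macrophage Mmp3 thus lay within their range at days 7 and 21, and the part of stromal RNA in it was not tested.

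Mmp13 (chr9:7272514-7283331, plus strand), the collagenase of cartilage and bone, showed no UMI in stromal-like cells at day 0 and 2 in monocyte/macrophage-like cells. Stromal-like levels were 143, 11.5 and 10.4 CPM at day 3, 178, 27.7, 69.7 and 44.6 at day 7 and 148, 49.0, 55.4 and 140 at day 21. The spread within a group was wide and days 3, 7 and 21 overlapped. The rise over day 0 was at least 107-fold, 143-fold and 233-fold, called at adjusted p-values of 0.00768, 0.00381 and 0.00364. Without day 3 replicate 1 the day 3 bound was 22.4-fold and the call was lost (adjusted p = 0.052). Without day 3 replicate 2 it was 170-fold, and without day 7 replicate 1 that of day 7 was 93.5-fold. At day 3, 8 cells of cluster 10, 0.977% of the class, held 74.6% of its Mmp13 UMIs.

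By day 21 the gene was highest in chondrocyte-like cells, 66 cells led by Col2a1, Ucma and Col9a3, which held 2887, 6512, 525 and 1296 CPM in the 4 libraries. No other group had a library with 10 such cells. They accounted for 36.3% ± 27.3 of Mmp13 UMIs at day 21 (SD, n = 4), beside 43.0% in stromal-like and 18.7% in tenocyte-like cells. Among tenocyte-like cells cluster 28 (Tnmd, Comp) held 453 CPM and cluster 20 held 11.6, with ranges of 226 to 936 and 5.10 to 16. In stromal-like cells at day 7, clusters 8, 10 and 2 averaged 111, 133 and 122 CPM against 7.03 in cluster 1. Mmp3 at that time averaged 157, 341 and 29.8 CPM in the first 3 of these clusters and 309 in cluster 1, so the clusters did not follow 1 order for both genes.

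Monocyte/macrophage-like cells showed Mmp13 at 6.37 ± 1.78 CPM at day 3 (SD, n = 3), 8.82 ± 5.43 at day 7 (n = 4) and 8.96 ± 7.07 at day 21 (n = 4), ratios to day 0 of 4.94 (1.35 to 41), 7.13 (1.96 to 59.2) and 5.99 (1.57 to 51.0) that were not called (adjusted p = 0.231, 0.12 and 0.249). The last was 3.96 without day 21 replicate 2. The class lay below stromal-like cells by 2.27 ± 0.46 log2 units at day 3, 2.73 ± 0.38 at day 7 and 3.56 ± 0.58 at day 21 (adjusted p = 6.93e-05, 2.4e-07 and 6.1e-06). Without day 3 replicate 1 the day 3 difference was −0.73 (adjusted p = 0.11).

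Mmp14 (chr14:54431612-54445364, plus strand), the membrane-anchored activator of pro-Mmp2, changed by different amounts in macrophages and stromal cells at every time. Monocyte/macrophage-like cells held 3.16, 3.57, 0 and 3.22 CPM at day 0, from 4 UMIs in all. They held 43.4, 38.9 and 48.8 at day 3, 92.0, 94.3, 78.9 and 98.5 at day 7 and 80.8, 77.4, 125 and 118 at day 21. The day 0, day 3 and day 7 libraries formed 3 ranges with no overlap. The rise was 4.27 ± 0.44 log2 units at day 3 (adjusted p = 5.88e-08), 5.37 ± 0.38 at day 7 (adjusted p = 2.38e-10) and 5.45 ± 0.38 at day 21 (adjusted p = 9.86e-10), with a step of 1.10 ± 0.13 from day 3 to day 7 (adjusted p = 1.62e-06). Stromal-like cells went another way at day 3. They held 152, 194, 130 and 164 CPM at day 0, 103, 112 and 104 at day 3, 454, 458, 530 and 430 at day 7 and 375, 368, 438 and 483 at day 21. Mmp14 fell by 0.45 ± 0.12 in these cells at day 3 (adjusted p = 0.00244) and rose by 1.62 ± 0.11 at day 7 (adjusted p = 3.15e-10) and 1.51 ± 0.11 at day 21 (adjusted p = 2.82e-09).

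The change in macrophages exceeded that in stromal cells by 4.95 ± 0.39 log2 units at day 3 (adjusted p = 5.44e-11). At days 7 and 21 the excess was 3.98 ± 0.43 (adjusted p = 2.72e-08) and 4.05 ± 0.43 (adjusted p = 1.05e-07). These differences rest on the few macrophage UMIs of day 0 given above, so their size is uncertain. The stromal-like level remained higher throughout, by 6.01 ± 0.31 at day 0, 1.06 ± 0.10 at day 3, 2.03 ± 0.09 at day 7 and 1.96 ± 0.10 at day 21. At day 7 clusters 3 and 4 of the macrophage class averaged 106 and 107 CPM, the Chil3-expressing cluster 5 28.9 and the Cd163-expressing cluster 14 17.1. Cluster 14, the main cluster of day 0, went from 0.608 CPM at day 0 to 5.09 at day 3, 17.1 at day 7 and 21.8 at day 21, without a test. Its means rose but stayed below clusters 3 and 4 at day 7. Stromal-like cells averaged 160, 107, 468 and 416 CPM at these times, and the part of stromal RNA in the cluster 14 values was not tested. In mean CPM the class's Mmp14 at day 0 was 1.55% of the stromal-like level, within the 0.628% to 1.64% of the stromal markers. The part of stromal RNA in it was not tested. After thinning, none of the 26 T/NK lymphocyte-like cells at day 3 and 3.02% of the 232 at day 7 carried an Mmp14 UMI. Osteoclast-like cells held 243 CPM at day 7 and 274 with p7N3, pericyte/smooth muscle-like cells 41.9 at day 0 and 276 at day 7, and endothelial-like cells 15.5 and 188. Tenocyte-like cells of cluster 28 reached 886 CPM at day 21.

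Mmp19 (chr10:128790910-128800824, plus strand), first known as an antigen of inflamed joints and expressed by macrophages and fibroblasts, reached like levels in both classes after injury. Monocyte/macrophage-like cells held 9.48, 17.9, 20.3 and 6.43 CPM at day 0, 51.7, 44.8 and 53.2 at day 3, 41.9, 55.1, 52.0 and 51.9 at day 7 and 31.8, 59.2, 62.8 and 58.8 at day 21. All later libraries lay above day 0, and the rise was 2.22 ± 0.31, 2.27 ± 0.31 and 2.27 ± 0.32 log2 units (adjusted p = 5.3e-06, 3.26e-06 and 2.36e-05). Stromal-like cells held 31.1 ± 2.95 CPM at day 0 (SD, n = 4), 50.6 ± 0.902 at day 3 (n = 3), 41.1 ± 9.53 at day 7 (n = 4) and 45.8 ± 4.33 at day 21 (n = 4). They rose by 0.81 ± 0.20 at day 3 (adjusted p = 0.00168) and 0.65 ± 0.19 at day 21 (adjusted p = 0.0124), and differed by 0.44 ± 0.19 at day 7 (adjusted p = 0.0567). With tenocyte-like and chondrocyte-like cells added to the class the day 21 value was 0.41 (adjusted p = 0.11). At day 7 cluster 4 averaged 101 CPM and cluster 3 16.4, with ranges of 59.0 to 136 and 15.1 to 19.1, so the cluster with high Mmp12 was also high for Mmp19.

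Between the classes Mmp19 was lower in macrophages at day 0 by 1.45 ± 0.53 (adjusted p = 0.0252), a call lost without day 0 replicate 1, 2 or 4 (adjusted p = 0.19, 0.062 and 0.14). It did not pass at day 3 (0.21 ± 0.16, adjusted p = 0.226) or day 21 (0.31 ± 0.20, adjusted p = 0.164). At day 7 Mmp19 was higher in macrophages (0.63 ± 0.14, adjusted p = 0.000159). The mean CPM was then 50.2 in macrophages and 41.1 in stromal-like cells, and the libraries overlapped (41.9 to 55.1 against 30.9 to 54.0). The fitted value also takes in the scaling factors of the fit, which these CPM do not. The change in macrophages exceeded that in stromal cells by 1.66 ± 0.55 at day 3 (adjusted p = 0.0238), 2.08 ± 0.53 at day 7 (adjusted p = 0.00379) and 1.76 ± 0.56 at day 21 (adjusted p = 0.0416). The day 3 call was lost when any 1 of its 7 libraries was left out (adjusted p of 0.056 to 0.18). The day 7 call was lost without day 0 replicate 1 (adjusted p = 0.062) or 4 (adjusted p = 0.05), and that of day 21 without any day 0 library and without day 21 replicate 2, 3 or 4 (adjusted p of 0.059 to 0.24).

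Timp1 (chrX:20870166-20874735, plus strand), a secreted inhibitor that responds to inflammatory cytokines, rose early in stromal-like cells. Levels there were 31.7, 60.1, 39.2 and 97.7 CPM at day 0, 3278, 2533 and 3140 at day 3, 1259, 1105, 1519 and 1333 at day 7 and 643, 400, 453 and 801 at day 21. The 4 times formed separate ranges. Timp1 rose by 5.87 ± 0.32 log2 units at day 3 (adjusted p = 1.81e-11), and stood 4.61 ± 0.30 (adjusted p = 2.15e-10) and 3.49 ± 0.29 (adjusted p = 2.17e-08) above day 0 at days 7 and 21. It fell by 1.26 ± 0.26 from day 3 to day 7 (adjusted p = 0.000525) and by 1.12 ± 0.24 from day 7 to day 21 (adjusted p = 0.00138). At day 0, 1 cell of cluster 10 held 80 of the class's 316 Timp1 UMIs. Tenocyte-like cells were already high at day 0, with 1448, 642 and 647 CPM in 3 libraries, and held 51.6% of Timp1 UMIs then and 44.4% at day 21.

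Among stromal clusters at day 7, clusters 8, 10 and 15 averaged 1753, 2042 and 2321 CPM, cluster 2 790, cluster 1 426 and cluster 17 312. In monocyte/macrophage-like cells 2 UMIs were seen at day 0. The class then held 217, 182 and 167 CPM at day 3, 76.5, 52.8, 58.1 and 73.4 at day 7 and 58.7, 41, 38.6 and 68.7 at day 21, ratios to day 0 of 144 (39.8 to 1188), 50.6 (14 to 418) and 41.3 (11.3 to 342) called at adjusted p-values of 2.14e-10, 7.62e-08 and 3.06e-06. It fell by 1.49 ± 0.17 from day 3 to day 7 (adjusted p = 7.4e-07). The fitted fold relative to stromal-like cells was 0.0746 at day 3, 0.0627 at day 7 and 0.0972 at day 21. As a ratio of mean CPM it was 6.32%, 5.00% and 9.02%, while the stromal markers by that measure had medians of 3.68%, 2.60% and 2.20%. At day 3 dendritic cell-like cells held 236 ± 15 CPM (SD, n = 3), granulocyte-like cells 182 and endothelial-like cells 254, so these classes lay close to the macrophage level, and the 1 library with enough T/NK lymphocyte-like cells held 84.8.

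Timp2 (chr11:118301069-118355740, minus strand), the partner of Mmp14 in pro-Mmp2 activation, fell early in both classes and recovered. The protein-coding gene Cep295nl overlaps it on the same strand, so the sharing of reads with that gene is uncertain. Stromal-like cells held 1803, 2072, 2056 and 2231 CPM at day 0, 430, 583 and 386 at day 3, 1347, 1373, 1290 and 1026 at day 7 and 1749, 1952, 1879 and 1824 at day 21. Day 3 lay below every other group and day 7 between day 3 and day 21. Timp2 fell by 2.01 ± 0.14 on the log2 scale at day 3 (adjusted p = 4.98e-10) and by 0.64 ± 0.12 at day 7 (adjusted p = 0.000166), and the difference at day 21 was −0.03 ± 0.12 (adjusted p = 0.867). Monocyte/macrophage-like cells held 861, 782, 1132 and 1110 CPM at day 0, 464, 582 and 389 at day 3, 571, 636, 712 and 554 at day 7 and 782, 898, 791 and 764 at day 21. Here Timp2 fell by 0.79 ± 0.15 at day 3 (adjusted p = 0.000179). The day 7 value of −0.37 ± 0.14 (adjusted p = 0.0398) lost its call without day 0 replicate 3 or 4 or day 7 replicate 1, 2 or 4 (adjusted p of 0.052 to 0.16).

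The fall was smaller in macrophages by 1.48 ± 0.11 log2 units at day 3 (adjusted p = 3.01e-11). At day 7 the difference was 0.50 ± 0.11 (adjusted p = 0.000616), not called without day 0 replicate 2 (adjusted p = 0.14) or 4 (adjusted p = 0.052) and not called with DESeq2 (adjusted p = 0.056). As a result the classes met at day 3. Macrophages were lower by 1.20 ± 0.08 at day 0, 0.70 ± 0.07 at day 7 and 1.10 ± 0.07 at day 21 (adjusted p = 4.27e-14, 3.51e-10 and 3.51e-14). At day 3 the value was 0.28 ± 0.08 in the opposite direction (adjusted p = 0.00352), but −0.09 when only genes with at least 10 UMIs in every sum were kept (adjusted p = 0.31), 0.09 with DESeq2 (adjusted p = 0.38) and between 0.12 and 0.21 without any 1 of the 3 libraries (adjusted p of 0.062 to 0.29). No difference at day 3 is therefore stated. The macrophage share of Timp2 UMIs was 9.14% at day 0, 53.2% at day 3 and 13.5% at day 7.

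Macrophage clusters differed widely in Timp2. The Cd163-expressing cluster 14 held 1244 CPM at day 0, 1755 at day 3 and 1280 at day 7, while the monocyte-like Chil3- and Ccr2-expressing cluster 5 held 105 at day 3 and 84.3 at day 7. The Arg1-expressing cluster 25 held 129 at day 3. Clusters 6 at day 3 (587 to 772) and 3 at day 7 (660 to 808) lay between. Within cluster 14, 3 of 3 day 3 libraries (1583 to 1846) lay above all 4 of day 0 (950 to 1445), the opposite of the class as a whole.

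Timp3 (chr10:86300372-86349506, plus strand), the matrix-bound inhibitor, was a transcript of endothelial-like, pericyte/smooth muscle-like and stromal-like cells at day 0 and fell in both classes tested. Stromal-like cells held 612, 458, 473 and 505 CPM at day 0, 76.1, 56.5 and 44.6 at day 3, 195, 103, 96.9 and 90.2 at day 7 and 460, 314, 318 and 307 at day 21. Day 0 overlapped day 21 only, and only through replicate 1 of day 21. Timp3 fell by 3.00 ± 0.32 at day 3 (adjusted p = 1.09e-07) and 2.03 ± 0.27 at day 7 (adjusted p = 3.06e-06), rose by 1.59 ± 0.26 from day 7 to day 21 (adjusted p = 0.000136) and differed from day 0 at day 21 by −0.44 ± 0.26 (adjusted p = 0.199). Endothelial-like cells averaged 1056 CPM at day 0, 92.7 at day 3, 143 at day 7 and 576 at day 21, and pericyte/smooth muscle-like cells 923, 182, 214 and 684, values given without a test. The endothelial-like share of Timp3 UMIs was 51.1% at day 0 and 7.98% at day 3. Monocyte/macrophage-like cells held 23.5 ± 7.36 CPM at day 0 (SD, n = 4), 3.40 ± 0.816 at day 3 (n = 3), 4.14 ± 1.36 at day 7 (n = 4) and 17.1 ± 7.95 at day 21 (n = 4). The class fell by 2.48 ± 0.41 at day 3 (adjusted p = 3.44e-05) and 2.18 ± 0.40 at day 7 (adjusted p = 0.000139) and rose by 1.92 ± 0.29 from day 7 to day 21 (adjusted p = 0.000104). Its fitted fold to stromal-like cells was 0.0393, 0.0690, 0.0418 and 0.0501 at days 0, 3, 7 and 21. As ratios of mean CPM, the measure of the markers, these were 4.60%, 5.76%, 3.41% and 4.88%. Each lay above the highest of the 6 stromal markers, which reached 1.64%, 4.54%, 3.29% and 2.56%. Relative to endothelial-like cells the macrophage level of Timp3 was 2.23%, 3.67%, 2.90% and 2.96%, while the median of the 18 endothelial markers in macrophages was 1.70%, 0.559%, 0.561% and 0.750%. The highest of these markers reached 8.42%, 6.34%, 5.54% and 6.48%, so Timp3 lay within their range each time. The part of RNA from other cells in this level was not tested.

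**Figure D3:**
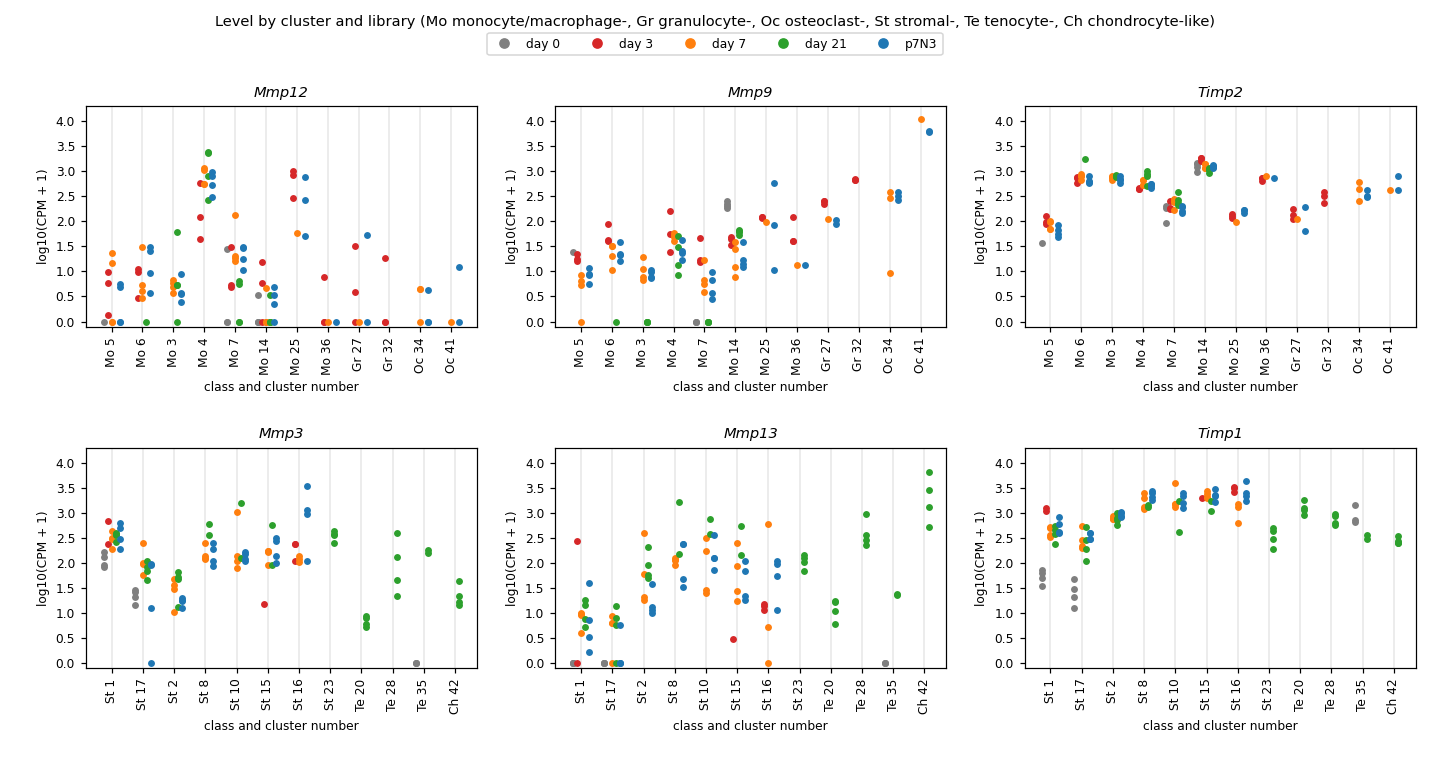
Level of 3 genes in the myeloid clusters (top) and of 3 genes in the stromal-, tenocyte- and chondrocyte-like clusters (bottom), as log10(CPM + 1); each point is a library with at least 10 cells of the cluster, coloured by group. Mmp12 is high in clusters 4 and 25, Mmp9 in osteoclast-like cluster 41, Timp2 in cluster 14, Mmp13 in chondrocyte-like cluster 42, and Mmp3 and Timp1 differ between cluster 1 and cluster 2 in opposite directions at day 7.

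Class against class, most members were stromal. Monocyte/macrophage-like cells were higher for 1 and lower for 7 of the 10 members at day 0 (44.5% of 14043 genes were called, 18.5% higher and 26% lower), higher for 3 and lower for 6 at day 3 (77.1%, 36.4% and 40.7%), higher for 3 and lower for 7 at day 7 (78%, 36.2% and 41.8%) and higher for 2 and lower for 7 at day 21 (63.4%, 28.3% and 35.1%). The median log2 difference of the members was −3.06, −1.66, −2.38 and −2.66, beside −0.21, −0.06, −0.08 and −0.11 over all genes tested. The members that were higher in macrophages were Mmp9 at every time without treatment, Mmp12 from day 3, Mmp19 at day 7 and, subject to the settings above, Timp2 at day 3. The Mmp9 difference at day 7 (0.85 ± 0.21, adjusted p = 0.000449) was not called with DESeq2 (0.70, adjusted p = 0.11). Mmp2, Mmp3, Timp1 and Timp3 were lower in macrophages by 3.36 to 5.56 log2 units in all 4 times.

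The change from day 0 differed between the classes for 5 of the 10 members at day 3 (25.5% of genes called, 16.5% with a larger and 8.97% with a smaller change in macrophages), 5 at day 7 (21.8%, 14.9% and 6.97%) and 3 at day 21 (9.49%, 6.29% and 3.19%). Mmp9 was the 1 member with the smaller change each time. For Mmp14, Mmp19 and Timp2 these differences are given above. For Mmp2 the change in macrophages exceeded that in stromal cells by 1.61 ± 0.29 at day 3 (adjusted p = 9.09e-05). At day 7 the excess was 1.14 ± 0.29 (adjusted p = 0.00455), not called without day 0 replicate 1, 3 or 4 (adjusted p of 0.053 to 0.08). The stromal markers in macrophages also rose relative to stromal-like cells, from a median of 1.21% at day 0 to 3.68% at day 3 and 2.60% at day 7. The part of stromal RNA in the Mmp2 differences was not tested. For Mmp9 the fitted differences of −7.38, −7.91 and −7.12 rest on 2 stromal UMIs at day 0 and are no measure of size. The median difference over all genes was 0.23, 0.21 and 0.14 at the 3 times and −0.01, 0.02 and 0.01 with relative log expression factors, a shift of over 0.1 log2 units that changes all members alike.

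**Figure D4:**
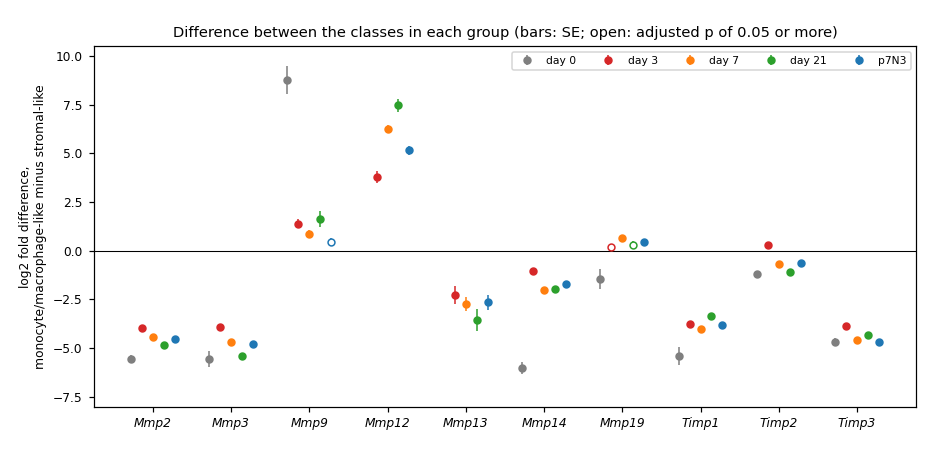
Fitted log2 level of macrophages minus that of stromal-like cells (positive: higher in macrophages) for each gene and group, with SE bars; open symbols did not pass an adjusted p of 0.05, and Mmp12 and Mmp13 at day 0 are not drawn because their SE exceeded 4. Mmp9 and Mmp12 lie above 0, Mmp19 near it after day 0, and Mmp14 moves from −6.01 at day 0 to −1.06 at day 3.

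**Figure D5:**
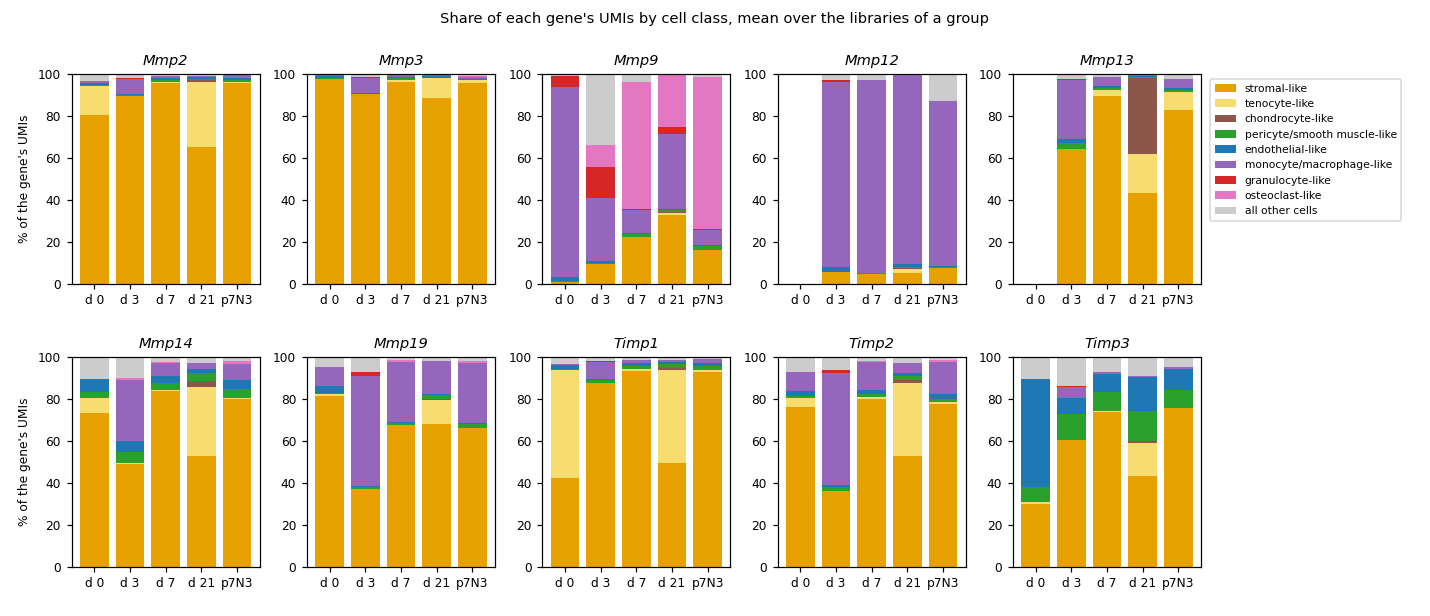
Percent of each gene's UMIs held by each cell class, as the mean over libraries of a group; Mmp12 and Mmp13 at day 0 are left out because some libraries had no UMI. The share depends on how many cells of a class were captured as well as on its level. Osteoclast-like cells take 60.7% of Mmp9 at day 7, and macrophages 53.2% of Timp2 at day 3.

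Over all cells of a library, the enzymes and inhibitors ran on different time courses, which here join cell numbers and levels per cell. Timp1 went from 46.6 CPM at day 0 to 1114 at day 3 and stood at 848 at day 7 and 524 at day 21, as means over libraries. Mmp2 was 368, 196, 688 and 1355 CPM at the 4 times, Mmp14 74.8, 72.1, 339 and 351, and Mmp13 0.0929, 21.5, 50.0 and 111. Timp3 was 616, 32.3, 96.2 and 356. These site-wide values are given without a test. Within stromal-like cells the UMIs of the 7 enzymes divided by those of the 3 inhibitors gave a median of 0.437 at day 0, 0.289 at day 3, 0.665 at day 7 and 1.03 at day 21, and the libraries of the 4 times did not overlap. Within monocyte/macrophage-like cells the medians were 0.204, 0.302, 0.590 and 0.579 and days 3, 7 and 21 overlapped. Day 0 (0.157 to 0.283) overlapped day 3 and day 21 and lay below day 7 (0.489 to 1.23). These ratios count transcripts of 10 genes and say nothing of protein or activity. Since they join several genes counted at the 3′ end, only their course over time is read.

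p7N3 was set against the day 7 libraries. The study compared p7N3 with PBS, but the titles of these libraries name no vehicle. None of the 10 members was called in monocyte/macrophage-like cells (0% of 11638 genes called, 716 at an unadjusted p under 0.05), none in stromal-like cells (0.328% called) and none for the difference of the responses (0.0712%). DESeq2 called 18 genes in the first fit, none of them a member. Macrophage Mmp12 was 329, 264, 136 and 117 CPM with p7N3, overlapping day 7, a log2 difference of −0.36 ± 0.52 (adjusted p = 0.96). Macrophage Timp1 was 77.6, 93.3, 113 and 121 CPM, every library above the highest of day 7, a difference of 0.61 ± 0.16 (unadjusted p = 0.000894, adjusted p = 0.318). Without the filter on low counts it was 0.60 with an adjusted p of 0.00029. Stromal-like Timp1 was 1299, 1661, 1905 and 2025 CPM (0.40 ± 0.24, adjusted p = 0.466) and stromal-like Timp2 1011, 1172, 968 and 943 (−0.30 ± 0.12, adjusted p = 0.257). For Mmp14 the differences were 0.24 ± 0.12 in macrophages and −0.13 ± 0.10 in stromal-like cells (adjusted p = 0.822 and 0.599). Class against class with p7N3, macrophages were higher for 2 and lower for 7 members (77.8% of genes called, 35.5% higher and 42.3% lower). Mmp9 was not called (0.45 ± 0.22, adjusted p = 0.0621) and Mmp19 was higher (0.46 ± 0.14, adjusted p = 0.0039), though not without p7N3 replicate 3 (adjusted p = 0.081) or with DESeq2 (adjusted p = 0.11). The unnamed cluster 40 (Csf3, Cxcl3, Serpinb2), 76 of whose 78 cells came from p7N3 libraries, held 4139 CPM of Mmp12 in the 57 cells of replicate 1 and 1219 in the 13 of replicate 4. This cluster lay outside the monocyte/macrophage-like class, so the Mmp12 test did not cover it. The paper counts a p7N3 cluster with these 3 genes among its monocyte/macrophage clusters. Of a library's Mmp12 UMIs, unnamed cells held 35.1%, 4.69%, 0% and 7.85% with p7N3, against at most 0.229% at day 7.

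The rest of the proteolytic system was read from 48 genes in 4 lists: other metalloproteinases and Timp4, plasminogen activation, ADAM and ADAMTS proteinases, and activators, anchors and clearance. In monocyte/macrophage-like cells 13 were higher and 3 lower at day 3 than at day 0, of 32 tested (20.8% and 16.6% of all genes), then 9 and 6 at day 7 (18.2% and 15%) and 7 and 4 at day 21 (12.4% and 8.49%). In stromal-like cells 10 were higher and 18 lower at day 3, of 42 tested (30.9% and 29.6% of all genes), then 14 and 13 at day 7 (29.3% and 24.9%) and 15 and 10 at day 21 (21.3% and 16.3%). With p7N3 none was called in either class. Between the classes at day 7, 11 were higher and 24 lower in macrophages, of 41 tested (36.2% and 41.8% of all genes).

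Timp4, the inhibitor of the family not among the members, fell with Timp3. Its macrophage mean went from 24.9 CPM to 0.515 at day 3 (−5.17 ± 0.72, adjusted p = 4.54e-06) and its stromal-like mean from 19.3 to 0.316 (−5.49 ± 0.79, adjusted p = 5.7e-06). Timp4 was a leading gene of endothelial-like cluster 9 and stood at 2062 CPM in endothelial-like cells at day 0 and 21.8 at day 3, and these cells were 31.2% of cells at day 0 and 1.47% at day 3. The levels in macrophages and stromal-like cells at day 0 were 1.21% and 0.935% of the endothelial-like one. Of the 18 endothelial markers, 12 were above 0 in every day 0 library in macrophages and 15 in stromal-like cells, at medians of 1.70% and 1.3% of their endothelial-like levels. Their summed level was 508 to 818 CPM in macrophages and 473 to 797 in stromal-like cells at day 0, and 126 to 149 and 167 to 181 at day 3. The part of endothelial RNA in the Timp4 values was not tested. The collagenase Mmp8 of neutrophil granules was 31.7 CPM in macrophages at day 3 and 136 in granulocyte-like cells, a difference of 2.35 ± 0.15. In macrophages Mmp8 was 5.22 CPM at day 7 and 12.6 with p7N3 (1.21 ± 0.22, adjusted p = 0.061). Mmp25 was below 1 CPM in both classes throughout. Mmp11, a stromal enzyme, rose from 3.97 to 28.3 CPM in stromal-like cells from day 3 to day 7 (2.73 ± 0.17), and Mmp27 fell from 12.5 at day 0 to 0.528 at day 3 (−4.39 ± 0.51).

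In the plasminogen system the urokinase receptor Plaur rose from 131 to 270 CPM in macrophages (1.22 ± 0.21) and from 18.8 to 71.1 in stromal-like cells (1.98 ± 0.22) at day 3, and was higher in macrophages at that time by 2.17 ± 0.11. Urokinase itself, Plau, fell in stromal-like cells from 35.1 to 15.7 CPM (−1.06 ± 0.27). Among the ADAMs, Adam8 rose in macrophages from 17 to 122 CPM (3.11 ± 0.33) and Adam12 in stromal-like cells from 10.3 to 99.2 (3.61 ± 0.22). Adam19 fell in macrophages from 78.9 to 6.61 (−3.32 ± 0.23). Reck, a membrane-anchored inhibitor of metalloproteinases, fell in stromal-like cells from 50.5 to 6.53 CPM at day 3 (−2.85 ± 0.21) and stood at 30.5 at day 21. Bsg, which can induce metalloproteinases in neighbouring fibroblasts, went from 521 to 559 CPM there at day 3 (0.22 ± 0.09, adjusted p = 0.033) and to 770 at day 7 (0.62 ± 0.08). These changes passed the threshold apart from that of Mmp8 with p7N3.

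The genes whose levels ran most like a member's are given as a description, by Pearson's r of log CPM over 198 library-by-class sums and 8802 genes. These sums share libraries and depth, and r mainly reflects which class expresses a gene. Mmp2 ran with Col1a1, Col1a2 and Mfap4 (0.84 each), Timp1 with Cthrc1 (0.84), Tnc (0.81) and Postn (0.77), and Timp3 with Ptrf (0.90), Sptbn1 (0.87) and Fermt2 (0.86). Mmp9 ran with Cstb (0.75), Atp6v0d2 (0.72) and Slc37a2 (0.71), Mmp12 with F10 and Ftl1 (0.66 each) and Clec4n (0.65), and Mmp13 with Acan (0.71), Aqp2 (0.70) and Tnn (0.66). For Mmp14 they were Ckap4 (0.78), Oaf (0.77) and Mfap2 (0.76), for Mmp3 Sfrp2 (0.70), Slc1a3 (0.68) and Prrx2 (0.66), for Mmp19 Guca1a (0.67), Emilin2 (0.66) and Dram1 (0.65), and for Timp2 Ahnak2, Rnase4 and Il11ra1 (0.78 each).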

How the data were processed

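Single cells of the tenotomy site were counted on the 10x Chromium platform (3′, v2). The authors aligned the reads to mm10 with Cell Ranger and deposited raw UMI counts per gene and barcode for each library. The submitters' processing notes name GRCh38 for some libraries, although all gene identifiers are those of the mouse. Barcodes under 500 genes or over 25% mitochondrial UMIs were removed, as in the study's methods, which includes day 0 replicate 1, whose file held all 737280 barcodes. Doublets were left in, and an alternative removed the 3.9% of cells with the highest Scrublet scores. A library's depth limits low levels, and intervals and floors (3 counts) cover counting error only.

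Cells were clustered with scanpy 1.11.5 on 2000 variable genes without the 58 members and related genes (30 principal components, 20 neighbours, Leiden 0.8). Of the 32 first clusters, 5 were split at a resolution of 0.3. The naming rule was set after the clusters were seen: a cluster took the class whose markers had the highest mean fold over the median cluster (20 CPM added), with at least 3 markers at 10 CPM or more, at least 1 of them among its 10 leading genes, and no other class with more there. It named 48 of 51 clusters and left 455 cells unnamed, so classes are rebuilt and may differ from the study's.

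Counts were summed per library and class (at least 10 cells) and tested with edgeR 4.0.16 (R 4.3.3; filterByExpr, TMM factors, quasi-likelihood F-test, Benjamini-Hochberg over all genes). Comparisons between days and of p7N3 with day 7 used all 19 libraries, and those between classes had the library as a block. The test was checked on simulated data. Alternatives included DESeq2 1.42.0, other scaling, filters and clusterings, and leaving out each library. All 10 members are named, with the 3 genes most like each. Of the 48 related genes, up to 3 per direction and comparison and 8 fixed ones could be named, and 1 of them is not reported here. The members and lists were chosen with earlier results of these data known. Replicate numbers did not pair the libraries.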

Additional observations from a re-analysis of the deposited data

Results flagged for a closer look

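In groups of 4 libraries, 10 of 78 sets of values held a library whose gap to the nearest other, divided by the range, was above Dixon's 95% critical value for 4 samples. For normally distributed values chance alone gives about 1 in 20. A set with 1 library above 0 and all others at 0 has a ratio of 1 by construction, so 10 of 78 is not read as an excess. In monocyte/macrophage-like cells these were Mmp2 at day 21 (replicate 2, 108 CPM, others 47.7 to 58.0), Mmp3 at day 7 (replicate 3, 7.31, others 3.36 to 3.72), Mmp12 at day 7 (replicate 4, 545, others 175 to 180), Mmp19 at day 21 (replicate 1, 31.8, others 58.8 to 62.8) and 4 values of day 0 that rest on 3 UMIs or fewer: Mmp12 and Mmp13 in replicate 1 (4.74 and 3.16, others 0), Timp1 in replicate 2 (7.14, others 0) and Mmp14 in replicate 3 (0, others 3.16 to 3.57). In stromal-like cells they were Timp3 at day 7 (replicate 1, 195, others 90.2 to 103) and at day 21 (replicate 1, 460, others 307 to 318).

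The change from day 0 differed between macrophages and stromal cells, by the interaction term of the joint edgeR fit, in 13 cases, given as log2 change in the first minus that in the second. Mmp2 differed by 1.61 at day 3 and 1.14 at day 7, and Timp2 by 1.48 and 0.50. Mmp14 differed by 4.95, 3.98 and 4.05 at days 3, 7 and 21, on few macrophage UMIs at day 0. Mmp19 differed by 1.66, 2.08 and 1.76, and Mmp9 by −7.38, −7.91 and −7.12, the latter on 2 stromal UMIs at day 0. The part of RNA from other cells in these differences was not tested.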

How the results depend on the processing

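Of 132 called changes of single members, 127 kept direction and call with DESeq2, 127 with relative log expression factors, 128 at Leiden resolution 2, 128 with at most 10% mitochondrial UMIs, 131 without cells of shared barcodes, 127 without likely doublets, 132 with the Cell Ranger rule for day 0 replicate 1 and 132 with no filter on low counts. Leaving out 1 library kept 716 of 793 and turned none. The one reversal was Timp2 between the classes at day 3, −0.0897 in log2 units when every sum needed at least 10 UMIs. Under that filter, which tests fewer genes, the members called in monocyte/macrophage-like cells were 2, 2 and 1 at days 3, 7 and 21 against day 0, 2 for day 7 and 0 for day 21 against the time before; between the classes 1, 0, 1 and 1 at days 0, 3, 7 and 21 and 1 with p7N3; for the difference of change 1, 0 and 0; and for granulocyte-like cells 1 at day 3 and 1 with p7N3. In monocyte/macrophage-like cells day 21 against day 7 had 2 called and 1 with relative log expression factors, 1 at Leiden resolution 2, 1 with only these 2 groups and 1 to 2 on leaving out a library; the lost one was Mmp2. Day 7 against day 3 had 7, and 4 to 7 on leaving out a library (4 without day 3 replicate 3). The difference of change at day 7 had 5, and 2 to 5 (3 without day 0 replicate 1, 2 without replicate 4). With no filter on low counts p7N3 had 1 in monocyte/macrophage-like cells (Timp1) and 1 for the difference of responses (Mmp12, −1.09). Over all genes, p7N3 calls in stromal-like cells were 46, against 231 with DESeq2, 86 with no filter, 88 with the replicate block, 21 without likely doublets, 23 without shared barcodes and 1 with only the 2 groups. In monocyte/macrophage-like cells they were 0, against 18, 98 with no filter and 2 at Leiden resolution 2. For the difference of responses they were 10, against 22 with DESeq2, 137 with no filter, 20 without likely doublets, 18 at Leiden resolution 2, 6 with tenocyte-like and chondrocyte-like cells added and 0 without the library block. Granulocyte-like calls at day 3 were 2734, and 1552 with DESeq2. Relative log expression factors moved the median of all genes between the classes from −0.06 to −0.25 at day 3 and from −0.08 to −0.22 at day 7. Replicate numbers did not pair the libraries (median correlation of same-numbered deviations −0.00822 in monocyte/macrophage-like and 0.00308 in stromal-like cells), and a replicate block kept all 66 calls it was run on and added 4. The cause of these differences was not tested. Depth limits the day 0 values of Mmp3, Mmp12, Mmp13, Mmp14 and Timp1 in monocyte/macrophage-like cells and of Mmp9, Mmp12 and Mmp13 in stromal-like cells, each at 4 UMIs or fewer.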
